A study of Mus musculus with 16 samples.

Results

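The mTOR pathway was followed through the transcripts of 10 genes in brain endothelial cells that had kept or lost *Ccm3* and were given propranolol, rapamycin or no drug. The genes were picked by their roles, with earlier results of these data known. They were *Mtor*, *Rptor*, *Rictor*, *Rheb*, *Tsc1*, *Tsc2*, *Rps6kb1*, *Eif4ebp1*, *Ddit4* and *Fkbp1a*, which encodes FKBP12. They are 10 of the 54193 genes whose counts could be summed, and all 10 were among the 14838 genes with enough counts to be tested.

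The kinase mTOR works in a pair of complexes. mTORC1, defined by raptor (*Rptor*), promotes protein synthesis by phosphorylating S6 kinase and the 4E-BP proteins. mTORC2, defined by rictor (*Rictor*), phosphorylates AKT and SGK kinases. The GTPase Rheb switches mTORC1 on, the TSC1 and TSC2 proteins keep Rheb inactive, and REDD1, the product of *Ddit4*, acts through TSC to lower mTORC1 activity under stress. Rapamycin enters the cell, binds FKBP12 and, as that pair, blocks mTORC1 at once and mTORC2 in many cells only with time. In endothelium the pathway serves growth and sprouting, and its activity is raised in cavernous malformations. Transcript levels do not measure any of these activities.

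The cells were primary mouse brain microvascular endothelial cells (mBMEC) from adult *Cdh5* (PAC)-CreERT2/*Pdcd10* fl/fl mice aged 8 to 10 weeks, each culture grown from a pool of brains, and selected with puromycin. *Pdcd10* is another name of *Ccm3*, and the Cre recombinase is driven by the *Cdh5* promoter, which is active in endothelial cells. All 6 groups carried the floxed allele and the recombinase: the KO cells were given 4-hydroxytamoxifen to delete the gene and the WT cells were not, so the genotype and this agent cannot be told apart. There were 3 WT, 3 KO, 3 KO+P and 3 KO+R libraries and 2 each of WT+P and WT+R, where P stands for 10 µM propranolol, a beta-adrenergic blocker, and R for 100 nM rapamycin, both for 24 h. Each library held between 18830503 and 26203339 estimated counts. Levels are given as CPM, counts scaled to the TMM-normalised total of a library, when libraries are compared for a gene. They are given as TPM, which also correct for transcript length, when genes are compared. A gene was said to have risen or fallen when its adjusted p in edgeR was below 0.05 and its fold change exceeded 1.5.

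The deleted gene was examined first. *Pdcd10* stood at 9.72, 10.97 and 9.73 CPM in KO replicates 1 to 3, and at 11.5, 31.15 and 47.04 CPM in WT replicates 1 to 3. *Pdcd10* in WT replicate 1 was therefore as low as in the KO cells, which goes against how that library is labelled. The 4 treated WT libraries held between 27.67 and 60.81 CPM, and the 6 treated KO libraries between 7.83 and 16.74 CPM. The difference between KO and WT in *Pdcd10*, a log2 fold change of −1.56 (SE 0.40), did not pass the test (edgeR adjusted p = 0.42). DESeq2, fitted as an alternative, called it (adjusted p = 0.025). The value was −1.96 without WT replicate 1 (edgeR adjusted p = 0.13, and 0.0142 with the replicate number as a block), and −0.87 with an offset for effective length (edgeR adjusted p = 0.799). For *Rictor*, *Ddit4*, *Eif4ebp1* and the genes of the network that passed in a comparison with WT libraries, values without WT replicate 1 are also given.

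The labelled cell type was checked against its markers. *Pecam1* (629.8 to 1965 TPM) and *Cdh5* (883.9 to 2264 TPM), which define endothelium, were high in every library, and the 10 endothelial markers summed to between 5831 and 11200 TPM. *Egfl7* was the most abundant of them by the mean over all libraries, the measure used for each list, but *Cldn5* and *Emcn*, named after their values were seen, exceeded it in some groups, *Cldn5* in KO (mean 2596 against 1928 TPM) and KO+R (1750 against 1566), and *Emcn* in WT+R (2018 against 1273). Mural markers, which mark pericytes and smooth muscle, were lower but uneven: the 8 genes summed to 62.3 to 225.9 TPM in KO, 113.4 to 470.1 in KO+P, 252.8 to 376.7 in KO+R, 90.5 to 913.5 in WT, 434.6 to 1546 in WT+P and 1388 to 2582 in WT+R libraries, with *Tagln* the most abundant, and between 0 and 2 of the 8 were at 0. Of the mural genes *Acta2* rose with rapamycin in WT cells, by 2.74 on the log2 scale (SE 0.61, edgeR adjusted p = 0.0469). Of the 6 mural genes tested there 4 had higher and 2 lower values, with 1 called, against 1.4% of all genes. *Tagln* and *Acta2* made up most of the WT+R sum, with means of 1508 and 475 TPM. *Pdgfrb* averaged 1.05 TPM there, *Cspg4* 0.543, *Des* 0.214 and *Rgs5* 0.0246. *Tagln* shares 66.7% of its exonic bases with genes on the other strand, so its value is uncertain. Astrocyte markers (most abundant *Gja1*) summed to at most 60.8 TPM, fibroblast markers (*Col1a1*) to at most 60.1, neuronal markers (*Tubb3*) to at most 24.5, microglial and macrophage markers (*Tmem119*) to at most 2.54 and oligodendrocyte markers to at most 1.10. In such bulk RNA a smaller number of cells of a type and less RNA in each of them cannot be told apart.

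The 10 genes spanned a wide range of abundance. *Fkbp1a* was by far the most abundant, with 1366 ± 294 TPM (SD over 16 libraries), followed by *Eif4ebp1* with 251 ± 126 and *Rheb* with 138 ± 36.1. The scaffold and kinase genes were far lower, from *Rptor* (16.6 ± 2.65 TPM), *Rps6kb1* (12.6 ± 2.01) and *Mtor* (11.3 ± 1.70) down to *Rictor* (6.44 ± 2.19) and *Tsc1* (4.95 ± 0.94). *Tsc2* (49.8 ± 9.23) and *Ddit4* (39.7 ± 16.2) lay between these sets. *Tsc2* was therefore more abundant than *Tsc1*, its partner in the same complex, and *Rptor* more abundant than *Rictor*, per length of transcript.

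The order of the top of this range held in each library, since *Fkbp1a* exceeded *Eif4ebp1*, *Eif4ebp1* exceeded *Rheb* and *Rheb* exceeded *Tsc2* in 16 of 16. Some neighbours lower down did not differ beyond their spread. *Tsc2* exceeded *Ddit4* in 12 of the 16 libraries, *Rptor* exceeded *Rps6kb1* in 15, *Rps6kb1* exceeded *Mtor* in 11 and *Rictor* exceeded *Tsc1* in 12. Several of these orders turned when protein_coding transcripts alone were counted. *Rheb* (mean 137.5 TPM) then exceeded *Eif4ebp1* (122.5), and *Ddit4* (39.7) exceeded *Tsc2* (28.6). *Mtor* (10.3) and *Rps6kb1* (8.22) exceeded *Rptor* (7.33), which came close to *Rictor* (6.34).

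**Figure D1:**
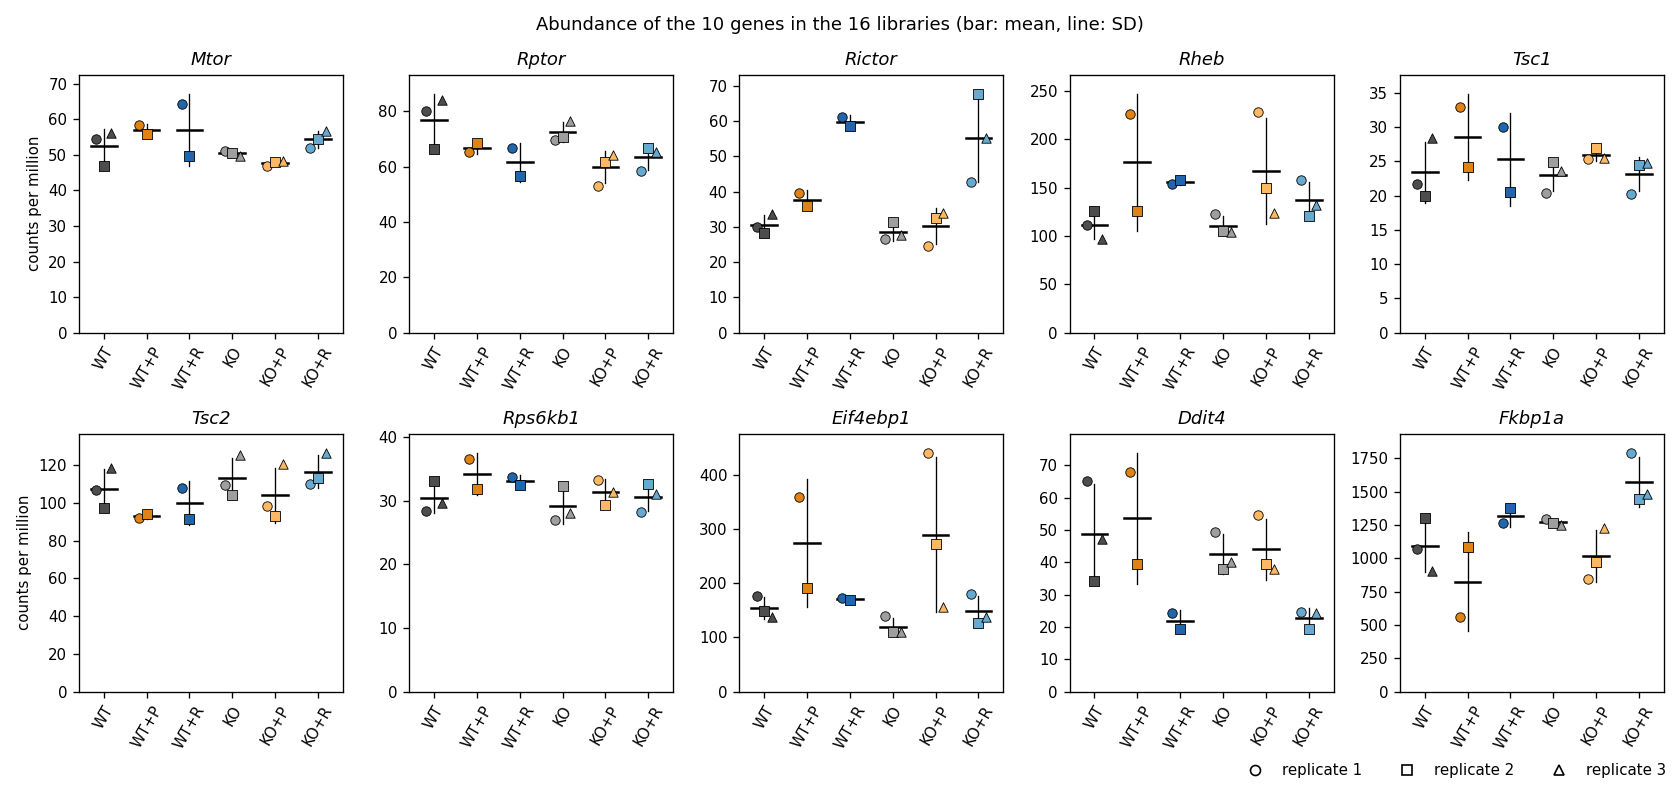
CPM (vertical axis, linear, from 0) of the 10 genes in each of the 6 groups (horizontal axis); each symbol is a library, its shape the replicate number, the bar the mean and the line the SD. The *Rictor* symbols of WT+R and KO+R (42.6 to 67.7 CPM) lie above all others of that panel, the *Ddit4* symbols of these groups (19.3 to 24.7 CPM) lie below all others, and the *Eif4ebp1* symbols of KO+P (157 to 441.6 CPM) lie above those of KO.

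Loss of *Ccm3* alone was examined by comparing untreated KO with WT libraries. None of the 10 genes passed the test, and only 1 of all 14838 genes did (0.00674%). At an unadjusted p under 0.05 edgeR picked 0 of the 10 genes and 900 of all genes (6.07%), and DESeq2 called 0 of the 10 and 0.431% of all genes. Without WT replicate 1 edgeR also called 0 of the 10. The log2 fold changes ran from −0.37 for *Eif4ebp1* (95% interval −1.04 to 0.31) to 0.21 for *Fkbp1a* (−0.27 to 0.70), and the KO and WT libraries overlapped for 10 of 10 genes, where 13.2% of all genes had groups that did not overlap. For *Mtor* itself the interval was −0.28 to 0.17, for *Rptor* −0.33 to 0.16 and for *Rictor* −0.46 to 0.25. Intervals of this width leave out a 1.5-fold difference for *Mtor*, *Rptor*, *Rictor*, *Rheb*, *Tsc1*, *Tsc2* and *Rps6kb1* but not for *Eif4ebp1*, *Ddit4* or *Fkbp1a*. They include WT replicate 1, where *Pdcd10* was as low as in KO cells, and intervals without that library are not given. The log2 fold change of *Ddit4* was −0.20 with that library and 0.06 without it. That of *Rictor* ran from −0.18 to −0.03 whichever library was left out.

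*Eif4ebp1* encodes 4E-BP1, the translation repressor that mTORC1 inactivates. It was lower in KO than in WT in 3 of 3 replicate numbers, by −0.35, −0.43 and −0.32 on the log2 scale, without passing (edgeR adjusted p = 0.996, and 0.484 with the replicate block). Without WT replicate 1 the log2 fold change of *Eif4ebp1* was −0.26. The other genes had differences of both signs within the replicate numbers, except *Rps6kb1* (−0.08 to −0.03) and *Tsc2* (0.04 to 0.10).

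With rapamycin *Rictor* was the 1 gene of the 10 that passed, and it did so in both genotypes. *Rictor*, the subunit that defines mTORC2, lies at chr15:6737860-6829882 on the plus strand (GRCm39), shares no exonic base with another gene, and 98.3% of its TPM came from the transcript Rictor-201. In KO cells it stood at 26.53, 31.31 and 27.62 CPM in replicates 1 to 3, and with rapamycin at 42.62, 67.74 and 55.24 CPM. All 3 treated libraries lay above all 3 untreated ones, replicate 1 the least far. *Rictor* rose 1.94-fold, a log2 fold change of 0.95 (SE 0.16, edgeR adjusted p = 0.0142), where 1.51% of all genes tested were called, and with the replicate block the adjusted p was 0.00413.

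In WT cells *Rictor* stood at 30.09, 28.17 and 33.55 CPM, and with rapamycin at 61.18 and 58.61 CPM. Both treated libraries again lay above the 3 untreated ones. The rise was 1.96-fold (log2 0.97, SE 0.18, edgeR adjusted p = 0.0194), where 1.4% of all genes tested were called. Without WT replicate 1 the log2 fold change was 0.95 and the adjusted p 0.07, and with the replicate block as well it was 1.07 and 0.0225. The effect of rapamycin on *Rictor* differed between the genotypes by −0.01 on the log2 scale (95% interval −0.54 to 0.51, edgeR adjusted p = 1 for the interaction).

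Both *Rictor* calls rested on few libraries. The edgeR adjusted p in KO cells was 0.071 without KO replicate 1, 0.0665 without KO replicate 3 and 0.0542 without KO+R replicate 2, with log2 fold changes between 0.81 and 1.14 whichever library was left out. In WT cells it was 0.07 without WT replicate 1, 0.0636 without WT replicate 2, 0.198 without WT+R replicate 1 and 0.0835 without WT+R replicate 2, with log2 fold changes of *Rictor* between 0.91 and 1.04. *Rictor* was higher with rapamycin in 5 of 5 replicate numbers, by 0.68, 1.11 and 1.00 in KO and by 1.02 and 1.05 in WT cells. Mural marker sums, mostly *Tagln*, moved with rapamycin as well and reached higher levels in WT+R than in KO+R. Of the 10 endothelial markers 7 had lower values in WT+R (median log2 fold change over the 10 of −0.40) and 6 in KO+R (median −0.03). In WT+R edgeR called 0 of the 10, against 1.4% of all genes, and gave 4 an unadjusted p under 0.05, against 12.6%. There DESeq2 called 3 of the 10, against 3.65% of all genes. With the replicate block 1 rose and 1 fell in WT+R, where 4.56% of all genes were called. In KO+R 0 of the 10 were called in any of these fits or had an unadjusted p under 0.05. The part of these shifts in the rapamycin values of *Rictor* and *Ddit4* was not tested.

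The 250 bases before the start of Rictor-201 are shown because *Rictor* passed with rapamycin in both genotypes. They were read from GRCm39 at chr15:6737612-6737861 on the plus strand and hold 81.2% G and C. Capitals mark the only match to the motifs searched, CACGC, which reads GCGTG on the other strand and ends 215 bases before the start.
Rictor promoter: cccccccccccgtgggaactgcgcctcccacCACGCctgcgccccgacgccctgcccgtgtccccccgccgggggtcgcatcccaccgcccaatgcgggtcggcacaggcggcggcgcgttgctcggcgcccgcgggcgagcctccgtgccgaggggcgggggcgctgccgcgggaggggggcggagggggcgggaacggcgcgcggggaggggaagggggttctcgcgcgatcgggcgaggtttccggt
Motifs were searched on both strands: TGTTTAC for FOXO factors, TGATGNAA for ATF4, ACGTG or GCGTG for the hypoxia factor HIF, and the E-box CACGTG, which itself contains ACGTG. A HIF match was present in 48.9% of the 14837 promoters of the same length, an E-box in 7.0%, a FOXO match in 2.5% and an ATF4 match in 2.3%. The window before *Ddit4* had 2 HIF matches, ACGTG and GCGTG, and none of the others. That window lies in an untranslated region of another annotated *Ddit4* transcript and is not printed. A match or its lack is a property of these letters only.

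*Mtor* and *Rptor*, the kinase and the subunit that defines mTORC1, moved little. *Mtor* lay between 46.75 and 64.18 CPM over all 16 libraries, and its log2 fold changes in the 5 comparisons ran from −0.08 to 0.12. *Rptor* stood at 69.73, 70.86 and 76.52 CPM in KO, at 53.17, 61.73 and 64.28 in KO+P and at 58.3, 66.68 and 65.26 in KO+R. Each treated library of *Rptor* in KO cells was below each untreated one, but neither drug passed: the log2 fold change was −0.28 with propranolol (SE 0.11, edgeR adjusted p = 0.359) and −0.19 with rapamycin (SE 0.11, edgeR adjusted p = 0.554). In WT cells these values of *Rptor* were −0.20 and −0.32, and the libraries overlapped. The 2 KO comparisons share the KO libraries, as do the 2 WT comparisons the WT ones.

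Of the genes that act upstream of mTORC1, *Ddit4* stood out. The product of *Ddit4*, REDD1, restrains mTORC1, and the gene (chr10:59785491-59788492, minus strand) shares no exonic base with another gene. It stood at 49.5, 38.07 and 40.01 CPM in KO replicates 1 to 3 and at 24.67, 19.31 and 24.46 CPM in KO+R. In WT cells it stood at 65.02, 34.07 and 47.17 CPM, and with rapamycin at 24.26 and 19.29 CPM. The 5 rapamycin libraries were lower than each of the 11 others, and *Ddit4* in replicate 1 was the highest of its group in each of the 6 groups.

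The log2 fold change of *Ddit4* with rapamycin was −0.90 in KO cells (SE 0.25, edgeR adjusted p = 0.123) and −1.16 in WT cells (SE 0.29, edgeR adjusted p = 0.0697), short of the threshold in both. With the replicate number as a block *Ddit4* fell in both, by 0.89 in KO (edgeR adjusted p = 0.00335) and by 1.15 in WT cells (edgeR adjusted p = 0.00249), where 4.98% and 4.56% of all genes were called. Within replicate numbers the differences were −1.0, −0.98 and −0.71 in KO and −1.42 and −0.82 in WT cells. Without WT replicate 1 the WT value was −0.90 (edgeR adjusted p = 0.192), and −1.03 with the block (edgeR adjusted p = 0.014). Without WT replicate 2 *Ddit4* passed in WT cells with no block (log2 −1.37, edgeR adjusted p = 0.0441). The rapamycin effect on *Ddit4* differed between the genotypes by 0.26 (95% interval −0.56 to 1.09), which was 0.02 without WT replicate 1 and 0.47 without WT replicate 2. With propranolol *Ddit4* was 54.75, 39.43 and 37.79 CPM in KO and 67.97 and 39.36 in WT cells, which overlapped the untreated libraries.

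*Rheb*, the GTPase that activates mTORC1, was highest with propranolol in replicate 1 of both genotypes. It stood at 122.4, 105.2 and 104.5 CPM in KO replicates 1 to 3 and at 228.4, 149.2 and 123.2 in KO+P. The treated *Rheb* libraries all exceeded the untreated ones, replicate 3 by the least. The log2 fold change was 0.59 (SE 0.23, edgeR adjusted p = 0.354), and in WT cells it was 0.66 (SE 0.26, edgeR adjusted p = 0.475), where replicate 2 showed no difference (125.8 CPM in both libraries). Both values of *Rheb* moved with single libraries: in KO cells it was 0.30 without KO+P replicate 1, and in WT cells 0.18 without WT+P replicate 1 and 1.02 without WT+P replicate 2. With rapamycin the values of *Rheb* were 0.30 in KO and 0.48 in WT cells, also short of the threshold.

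*Tsc1* and *Tsc2*, whose products form the complex that inactivates Rheb, showed no call in any comparison. *Tsc1* lay between 20.02 and 33.02 CPM and *Tsc2* between 91.69 and 126.5 CPM over the 16 libraries. *Tsc2* followed the replicate number closely. The number alone accounted for 65.9% of its variance in log2 CPM, or for 45.7% when entered after the group, which alone accounted for 44.7%, and replicate 3 was the highest in each of the 4 groups that had 3 libraries. For *Rictor* the number alone accounted for 2.9%, and the group for 87.5% after it. *Tsc2* shares 12.0% of its exonic bases with *Pkd1* and *Nthl1* on the other strand, and since the libraries carry no strand its value is uncertain to that extent.

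**Figure D2:**
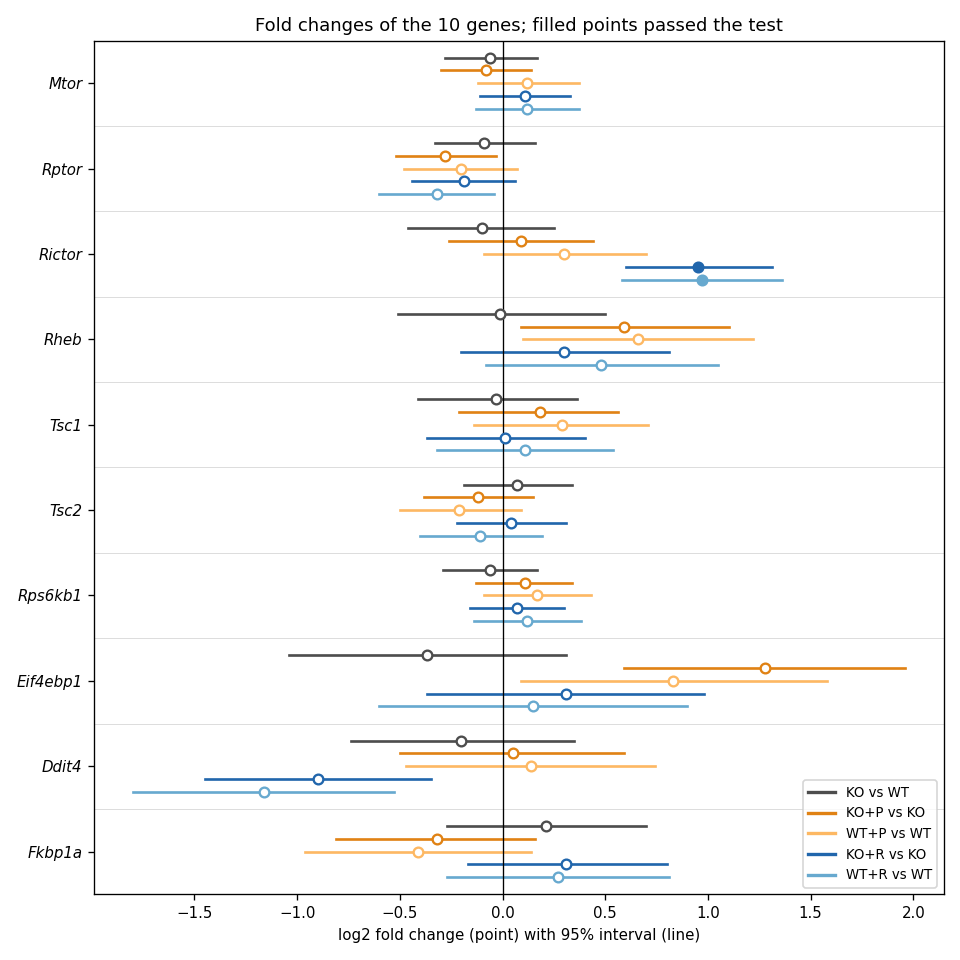
Log2 fold change (point) and 95% interval (line) of the 10 genes, 1 colour per comparison, from the edgeR model of 6 groups; filled points passed the test. Only the rapamycin points of *Rictor* (0.95 and 0.97) are filled, and the intervals of *Ddit4* with rapamycin (−1.45 to −0.35 and −1.80 to −0.53) and of *Eif4ebp1* with propranolol (0.59 to 1.96 and 0.09 to 1.58) also leave out 0, as do those of *Rheb* with propranolol (0.09 to 1.10 and 0.10 to 1.22) and of *Rptor* in KO+P (−0.52 to −0.03) and WT+R (−0.60 to −0.04).

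Among the substrates of mTORC1, *Eif4ebp1* had the largest change of the 10 genes with propranolol. It stood at 138.9, 110.3 and 110.3 CPM in KO replicates 1 to 3 and at 441.6, 272.1 and 157 CPM in KO+P. The lowest treated library, replicate 3, was above the highest untreated one. *Eif4ebp1* was 2.42-fold higher (log2 1.28, SE 0.32), which did not pass (edgeR adjusted p = 0.213, and 0.0543 with the replicate block), in a comparison where 0.00674% of all genes were called. DESeq2 called it with an adjusted p of 0.00957. Endothelial markers were lower with propranolol too, 9 of 10 in KO (median log2 fold change −0.49) and 10 of 10 in WT cells (median −0.62). None of them passed the test in edgeR or DESeq2. At an unadjusted p under 0.05 edgeR picked 3 in KO and 3 in WT cells, against 12.6% and 9.87% of all genes. Mural markers differed in direction: 2 of the 6 tested, *Tagln* and *Acta2*, had higher and 4 lower values with propranolol in both genotypes, with 0 called. The mural medians were −0.49 in KO and −0.29 in WT cells, but −0.49 and 0.17 with the replicate block. The mural sum, mostly *Tagln*, was higher in 4 of 5 replicate numbers. The part of the endothelial or the mural differences in the value of *Eif4ebp1* was not tested.

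The size of this difference depended on the replicate. Within replicate numbers it was 1.67, 1.30 and 0.51 on the log2 scale, and *Eif4ebp1* passed when KO+P replicate 3 was left out (log2 1.57, edgeR adjusted p = 0.0207). Without KO+P replicate 1 the log2 fold change fell to 0.84 (edgeR adjusted p = 0.893). In WT cells *Eif4ebp1* stood at 177.3, 148.6 and 137.5 CPM, and with propranolol at 359 and 190.8 CPM, again highest in replicate 1. That was a log2 fold change of 0.83 (SE 0.34, edgeR adjusted p = 0.477), 0.93 without WT replicate 1. It was 0.30 without WT+P replicate 1 (edgeR adjusted p = 1) and 1.22 without WT+P replicate 2 (edgeR adjusted p = 0.096). The propranolol effect on *Eif4ebp1* differed between the genotypes by 0.44 (95% interval −0.57 to 1.46), a value that ranged from 0.01 without KO+P replicate 1 to 0.97 without WT+P replicate 1. With rapamycin the values were 180, 126.6 and 138.5 CPM in KO+R and 173.8 and 169 CPM in WT+R, log2 fold changes of 0.31 and 0.15.

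*Rps6kb1*, which encodes the S6 kinase S6K1, varied least of the substrates. The gene shares 11.7% of its exonic bases with *Rnft1* and *Tubd1* on the other strand, which makes its counts uncertain to that extent. It lay between 27 and 36.58 CPM, and its log2 fold changes ran from −0.06 to 0.17. Its main transcript, Rps6kb1-207, took 64.3, 61.6 and 66.9% of its TPM in KO replicates 1 to 3 and 40.2, 55.3 and 52.6% in KO+P. The share was thus lower with propranolol in 3 of 3 KO replicate numbers, and in WT it went from 60.8 to 57.1% and from 67.6 to 65.3%. Part of the rest lay in Rps6kb1-206, a short retained-intron transcript (8.67% on average in KO and 23.2% in KO+P). Its share averaged 16.0% in WT and 15.8% in WT+P. It held only 1.0 to 14.07 counts per library, so its share rests on few reads. Another retained-intron transcript, Rps6kb1-201, held 31.21 to 201.9 counts per library. The share of Rps6kb1-201 averaged 17.9% in KO and 24.9% in KO+P, and 14.5% in WT and 16.4% in WT+P. All these shares are estimates of the quantification, picked after the values were seen, and were not tested.

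*Fkbp1a* encodes FKBP12, the protein through which rapamycin acts. It stood at 1295, 1266 and 1248 CPM in KO replicates 1 to 3, at 1792, 1448 and 1486 CPM in KO+R and at 847.9, 969.5 and 1230 CPM in KO+P. In KO cells the rapamycin libraries were all above and the propranolol libraries all below the untreated ones. Neither difference passed: the log2 fold change of *Fkbp1a* was 0.31 with rapamycin (SE 0.22, edgeR adjusted p = 0.651) and −0.32 with propranolol (SE 0.22, edgeR adjusted p = 0.558). In WT cells it stood at 1071, 1304 and 908.1 CPM, at 1262 and 1374 CPM with rapamycin and at 560.7 and 1088 CPM with propranolol, and the groups overlapped.

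*Fkbp1b*, the closest relative of *Fkbp1a*, was far less abundant, at 1.64 to 7.79 CPM. It stood at 6.89, 5.77 and 6.04 CPM in KO and at 3.73, 4.07 and 1.64 CPM in WT replicates 1 to 3, and the groups did not overlap. The log2 fold change of *Fkbp1b* was 0.99 (SE 0.35, edgeR adjusted p = 0.615), or 1.12 without WT replicate 1 (0.707). The 3 annotated *Fkbp1a* pseudogenes held 2 counts or fewer in all libraries together, as the quantification divided the reads, and whether reads were shared with *Fkbp1a* was not tested.

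Of the 10 transcripts of *Fkbp1a*, a pair is described here, picked after the values were seen. Their estimated shares differed with each drug within replicate numbers. Fkbp1a-201 carried 77.1% of *Fkbp1a* TPM on average and Fkbp1a-205, which begins at an alternative first exon, 14.0%. Their junctions are shown because the shares moved: both join the same coding exon at chr2:151399306-151399418 (GRCm39, plus strand), Fkbp1a-201 from its second exon at chr2:151384738-151384785 and Fkbp1a-205 from its first at chr2:151385819-151386060. Lower case marks the last 40 bases of the exon before the junction and capitals the first 20 bases of the shared exon.
Fkbp1a-201: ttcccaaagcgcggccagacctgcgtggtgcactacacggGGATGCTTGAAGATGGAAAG
Fkbp1a-205: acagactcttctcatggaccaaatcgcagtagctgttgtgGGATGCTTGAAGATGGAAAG
The annotation gives Fkbp1a-205 as coding from its first base, with no start codon.

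The share of Fkbp1a-205 in *Fkbp1a* TPM was 9.11, 17.9 and 16.6% in KO replicates 1 to 3. With rapamycin it was 13.5, 23.2 and 20.7%, and with propranolol 3.60, 13.1 and 15.7%. In WT replicate 3, which had no treated library, it was 8.77%. In WT replicates 1 and 2 it was 8.79 and 19.9%, with rapamycin 11.5 and 22.7%, and with propranolol 3.92 and 14.9%. The share was higher with rapamycin in 5 of 5 replicate numbers, by 2.74 to 5.29 percentage points, and lower with propranolol in 5 of 5, by 0.90 to 5.51 points; 1 of these 5 is set against WT replicate 1 in each case. Replicate 1 had the lowest share in KO, KO+P, KO+R, WT+P and WT+R, and the replicates differed by more than the drugs, so that the groups overlapped. No test was made of the shares, which depend on how reads that fit both transcripts were divided.

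**Figure D3:**
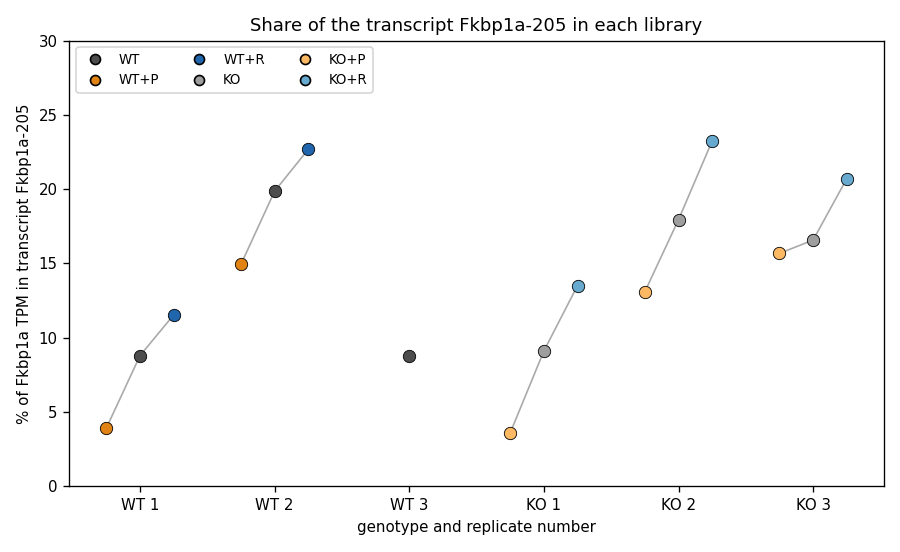
Percentage of *Fkbp1a* TPM in the transcript Fkbp1a-205 (vertical axis, from 0) in each library, by genotype and replicate number (horizontal axis); lines join libraries of the same genotype and replicate number, and WT replicate 3 had no treated library. In each joined set the propranolol point is the lowest (3.60 to 15.7%) and the rapamycin point the highest (11.5 to 23.2%).

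Across the comparisons, calls were few beside the number of genes whose groups did not overlap. With propranolol 0 of the 10 genes passed in KO cells and 0 in WT cells, where 1 of all genes was called in each (0.00674%), and edgeR picked 3 and 2 of the 10 at an unadjusted p under 0.05, against 12.6% and 9.87% of all genes. With the replicate block 0 of the 10 passed in either, where 0.142% and 0.0809% of all genes were called. DESeq2 called 1 of the 10, *Eif4ebp1*, in KO cells and 0 in WT cells, against 1.11% and 0.802% of all genes. The libraries did not overlap for 6 of the 10 genes with propranolol in KO cells, against 18.7% of all genes tested, and for 3 in WT cells, against 21.2%. With rapamycin these counts were 5 in KO cells, against 24.1% of all genes, and 3 in WT cells, against 28.6%. At an unadjusted p under 0.05 edgeR picked 2 of the 10 with rapamycin in KO cells and 3 in WT cells, against 12.5% and 12.6% of all genes. The interactions of drug and genotype had 0 calls among the 10 genes and 0 among all genes (0%), while edgeR gave 107 of all genes (0.721%) an unadjusted p under 0.05 for propranolol and 113 (0.762%) for rapamycin, 0 of the 10 among either, and DESeq2 called 0 and 1 of all genes.

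**Figure D4:**
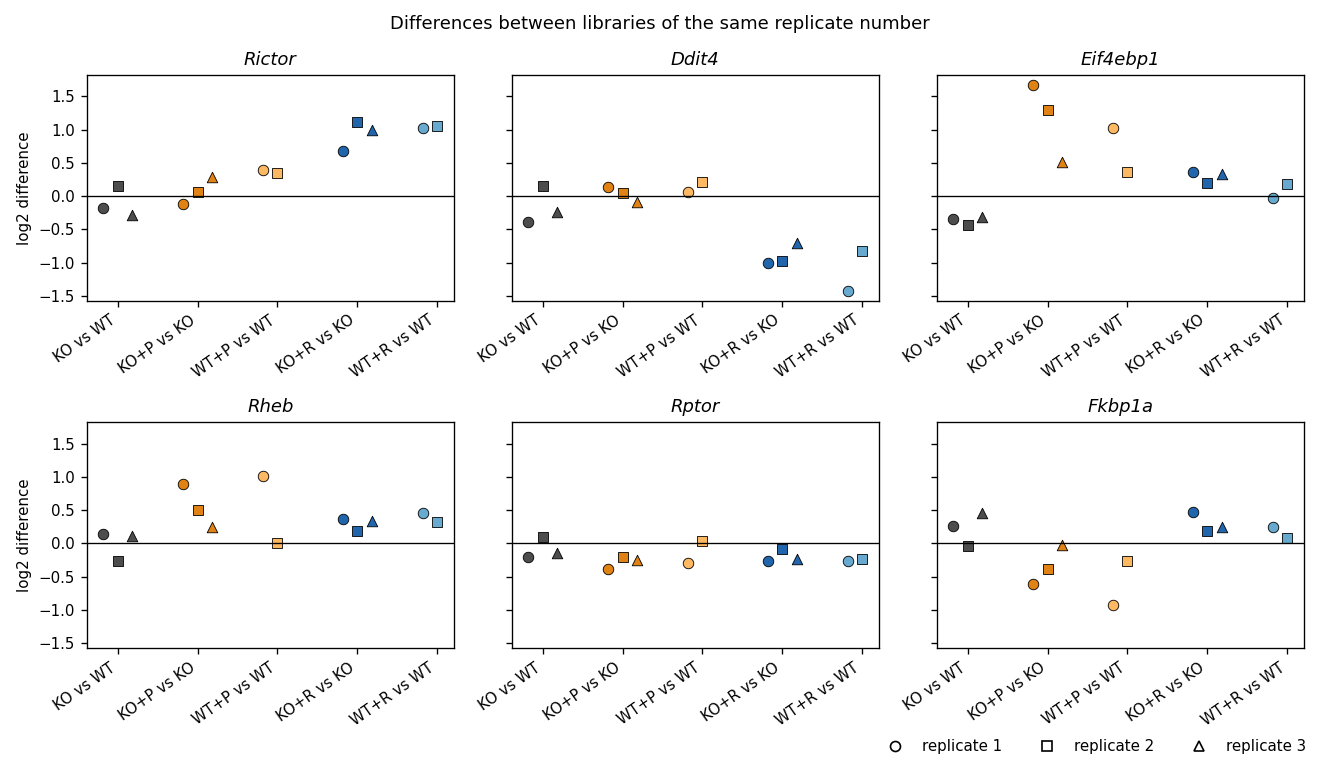
Log2 difference in CPM (vertical axis) between 2 libraries of the same replicate number for 6 of the genes, by comparison (horizontal axis); symbol shape is the replicate number. The *Rictor* differences with rapamycin lie between 0.68 and 1.11 and those of *Ddit4* between −1.42 and −0.71, while the *Eif4ebp1* differences with propranolol spread from 0.36 to 1.67.

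The wider network was read from 7 lists of 102 genes, all of them tested. In untreated KO against WT cells, and with propranolol in either genotype, 0 of the 102 passed in edgeR. At an unadjusted p under 0.05 edgeR picked 7, 13 and 10 of the 102 in KO vs WT, KO+P and WT+P, where it picked 6.07%, 12.6% and 9.87% of all genes, and DESeq2 called 0, 1 and 1, against 0.431%, 1.11% and 0.802%. With rapamycin 4 rose and 0 fell in KO cells and 3 rose and 0 fell in WT cells. Beside these stand 105 risen and 119 fallen genes of all 14838 in KO cells (1.51%) and 96 risen and 111 fallen in WT cells (1.4%). An unadjusted p under 0.05 was found for 20 and 21 of the 102, against 12.5% and 12.6% of all genes, and DESeq2 called 9 and 9, against 3.19% and 3.65%. With the replicate block 6 rose and 4 fell in KO, and 6 rose and 5 fell in WT cells, where 4.98% and 4.56% of all genes were called.

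The translation effectors held a pair of the risen genes. *Eef2*, the elongation factor that moves the ribosome along the mRNA, rose from 2265 to 2478 CPM in KO to 4239 to 4613 CPM in KO+R (log2 0.89, SE 0.13, edgeR adjusted p = 0.00628), and from 2219 to 2378 CPM in WT to 3721 and 4269 CPM in WT+R (log2 0.79, SE 0.14, edgeR adjusted p = 0.0178). The KO call of *Eef2* stayed whichever library was left out (edgeR adjusted p 0.0229 to 0.042), but the WT call was lost in each such fit (0.0514 to 0.224), with log2 0.81 and an adjusted p of 0.056 without WT replicate 1, and 0.0138 when the block was added to that fit. *Eif4b*, an initiation factor that S6 kinase phosphorylates, rose from 184.3 to 208 CPM in KO to 311.2 to 373 CPM in KO+R (log2 0.84, SE 0.11, edgeR adjusted p = 0.00343), and this call stayed whichever library was left out (0.00771 to 0.0243). In WT cells its log2 fold change of 0.56 had an edgeR adjusted p of 0.0299 but fell short of 1.5-fold. With the block that value of *Eif4b* was 0.59 and passed (edgeR adjusted p = 0.0111). It also passed with the block and without WT replicate 1 (0.63, edgeR adjusted p = 0.0305). With no block the value was 0.6 without WT replicate 1, 0.52 without WT replicate 2 and 0.57 without WT replicate 3. In these fits the edgeR adjusted p rose above 0.05 (0.07, 0.0905 and 0.0854 in that order). The value of *Eif4b* was 0.61 without WT+R replicate 1 and 0.51 without WT+R replicate 2, again with no block. *Eif4b* shares 30.4% of its exonic bases with an antisense gene, so its counts are uncertain. The median log2 fold change of the 17 genes of this list was 0.06 in KO and 0.19 in WT cells, beside −0.02 and −0.01 over all genes.

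*Sgk1*, a kinase that mTORC2 phosphorylates, rose in KO cells from 76.36 to 92.7 CPM to 169.8 to 254 CPM (log2 1.33, SE 0.28, edgeR adjusted p = 0.0345). The *Sgk1* call was lost whichever of the 6 libraries was left out (edgeR adjusted p 0.0594 to 0.144, log2 1.2 to 1.49). In WT cells *Sgk1* had a log2 fold change of 1.15 (edgeR adjusted p = 0.0863, and 0.00207 with the block), which fell to 0.68 without WT+R replicate 1 (edgeR adjusted p = 0.688). In untreated cells *Sgk1* was lower in KO than in WT, with a log2 fold change of −0.83 that passed in edgeR only with the block (adjusted p = 0.595 without it and 0.0465 with it), where 0.182% of all genes were called. That value of *Sgk1* was −0.81 without WT replicate 1 (edgeR adjusted p = 0.762), and −0.95 with the block (0.0207). *Sgk1* shares 14.45% of its exonic bases with antisense genes.

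*Prr5l*, which encodes a protein that binds mTORC2, rose with rapamycin in WT cells from 30.46 to 40.61 CPM to 65.05 and 76.04 CPM (log2 0.95, SE 0.21, edgeR adjusted p = 0.0394). The *Prr5l* call was lost whichever of the 5 libraries was left out (edgeR adjusted p 0.0641 to 0.342). Its value was 0.84 without WT replicate 1 (edgeR adjusted p = 0.13), and 0.77 with the block (0.0614). In KO cells its log2 fold change was 0.62 (edgeR adjusted p = 0.149, and 0.0299 with the block). The effects of rapamycin on *Eef2*, *Eif4b*, *Sgk1* and *Prr5l* differed between the genotypes by 0.09, 0.28, 0.18 and −0.33 on the log2 scale, all with an edgeR adjusted p of 1 for the interaction.

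Other genes of the network passed in edgeR with the replicate block and not without it, and all of them but *Castor2* and *Fkbp14* are named after their values were seen. DESeq2 with no block also called *Prr5* and *Pik3r1* in both genotypes, *Castor2* and *Deptor* in WT cells and *Fkbp14* in KO cells. *Prr5*, another mTORC2 subunit, fell in KO cells (log2 −1.51, edgeR adjusted p = 0.00189) and in WT cells (−1.94, edgeR adjusted p = 0.00175); its libraries held 35.37 to 72.4 CPM in KO and 10.54 to 24.25 CPM in KO+R. *Pik3r1*, a regulatory subunit of PI3K, fell by 0.61 and 0.62, *Castor2*, which takes part in arginine sensing, by 0.60 and 0.76, and *Fkbp14*, an immunophilin of the endoplasmic reticulum, by 1.03 and 0.80, in KO and WT cells in that order. *Irs2*, the adaptor of the insulin receptor, rose by 1.31 and 1.93 from 1.06 to 5.37 CPM in untreated libraries. The WT value of *Fkbp14* rested on single libraries: with no block it was −0.66, −0.26 without WT+R replicate 1 and −1.21 without WT+R replicate 2. The edgeR adjusted p of *Pik3r1*, *Castor2*, *Fkbp14* and *Irs2* with the block lay between 0.00111 and 0.0371. *Deptor*, an inhibitor of both complexes, fell in WT cells (−2.46, edgeR adjusted p = 0.0412) at levels of 0.49 to 3.98 CPM. With the block but without WT replicate 1 the WT calls of *Deptor* (edgeR adjusted p = 0.113) and *Castor2* (0.0838) were lost, and those of *Prr5*, *Pik3r1*, *Fkbp14* and *Irs2* stayed (0.00847 to 0.0362).

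In the lists with no call, the gene with the smallest p showed values below the threshold. *Fnip1*, of the folliculin complex, had a log2 fold change of 0.50 with propranolol in WT cells (edgeR adjusted p = 0.475), *Castor2* of −0.71 with rapamycin in WT cells (edgeR adjusted p = 0.0667), *Prkag2*, an AMPK subunit, of −0.35 with propranolol in KO cells (edgeR adjusted p = 0.311), and *Fkbp14* of −1.02 with rapamycin in KO cells (edgeR adjusted p = 0.122). With rapamycin in KO cells the list medians were −0.08 for the 12 subunits, assembly factors and close regulators of the complexes (the subunits *Mlst8*, *Akt1s1*, *Mapkap1*, *Deptor*, *Prr5* and *Prr5l*, the assembly factors *Telo2*, *Tti1* and *Tti2*, and *Rhebl1*, *Tbc1d7* and *Ddit4l*), −0.02 for the 13 Rag, Ragulator and folliculin genes, −0.05 for the 18 GATOR, KICSTOR and sensor genes, 0.11 for the 17 genes of PI3K signalling, −0.09 for the 9 AMPK and LKB1 genes and 0.01 for the 16 immunophilins. Over all genes that median was −0.02. With rapamycin in WT cells these medians were, in the same order, −0.21, 0.08, −0.06, 0.08, 0.09 and 0, against −0.01 over all genes, and 10 of the 12 genes of the first list had lower values.

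**Figure D5:**
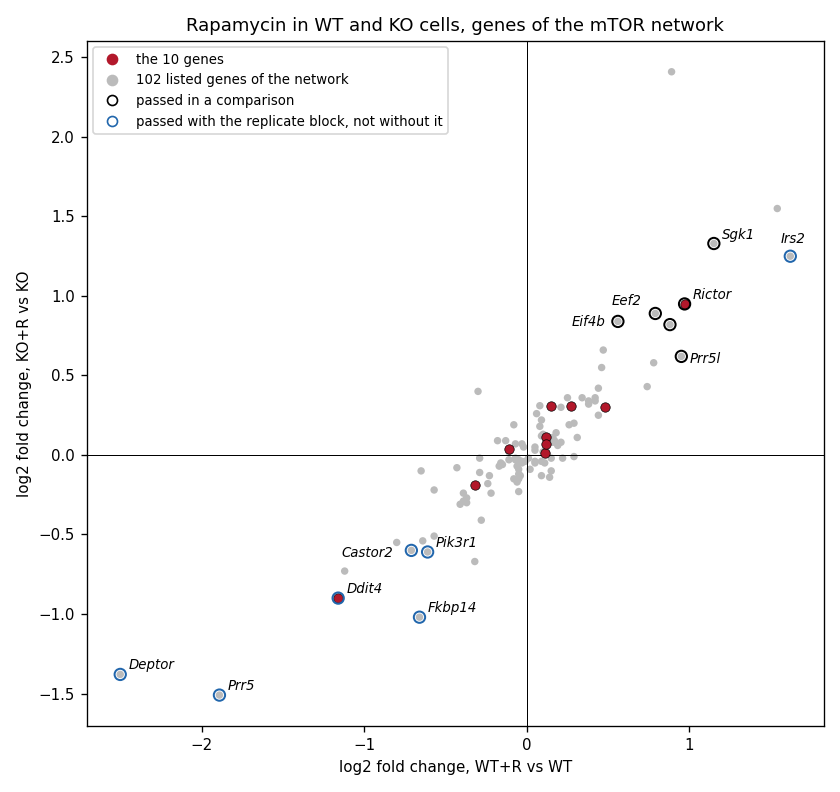
Log2 fold change with rapamycin in WT (horizontal axis) and KO cells (vertical axis) for the 10 genes (red) and the 102 listed genes of the network (grey); black rings passed in a comparison and blue rings passed with the replicate block but not without it. Names are given for the ringed genes that the text describes. The points of *Rictor* (0.97 and 0.95) and *Eef2* (0.79 and 0.89) lie near each other at the upper right, and *Ddit4* (−1.16 and −0.90), *Prr5* (−1.89 and −1.51) and *Deptor* (−2.50 and −1.38) at the lower left.

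Proliferation markers were also read. All 8 had lower values with each drug, with medians of −1.37 for KO+R, −1.25 for KO+P, −0.90 for WT+R and −0.60 for WT+P on the log2 scale, and higher values in KO than in WT (median 0.56), but none of them passed in edgeR or DESeq2, and 0 had an unadjusted p under 0.05 in edgeR in any of the 5 comparisons. *Pcna*, with the smallest p, had a log2 fold change of −0.64 and an edgeR adjusted p of 0.404 in KO+R. With the block *Ccnb1* (−1.66), *Mcm2* (−0.85) and *Ccna2* (−1.89), named after their values were seen, fell in KO+R, where 4.98% of all genes were called. The part of proliferation in the values of the 10 genes was not tested.

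How the 10 genes varied together was described over the 16 libraries after the mean of each replicate number had been subtracted, with no test, since the libraries share cultures and treatments. *Rictor* and *Ddit4* ran opposite to each other (r = −0.80), as did *Rheb* and *Rptor* (r = −0.81), while *Rheb* and *Eif4ebp1* ran together (r = 0.83). *Eif4ebp1* ran against *Tsc2* (r = −0.78). *Fkbp1a* ran with *Tsc2* (r = 0.75) and against *Ddit4* (r = −0.75). Group means were not subtracted, so these values also carry the differences between groups given above. Among 12409 genes whose mean reached 1 CPM, those most like *Ddit4* were *Arhgef26*, *Myo19* and *Sprr1a* (r = 0.97 each). Those most like *Eif4ebp1* were *Lrrfip2* (r = 0.97), *Eif2b3* (r = 0.97) and *Eif3c* (r = 0.96). Those most like *Fkbp1a* were *Phtf1* (r = 0.97), *Marchf2* (r = 0.96) and *Spns2* (r = 0.96). The highest r of each of the 10 genes lay between 0.88 (*Rps6kb1*) and 0.97. Without subtracting the replicate means, r was 0.94 for *Arhgef26*, 0.7 for *Myo19* and 0.69 for *Sprr1a*. It was then 0.91 to 0.97 for the genes named with *Eif4ebp1* and 0.86 to 0.96 for those named with *Fkbp1a*.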

How the data were processed

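Poly(A) RNA of 16 mBMEC libraries, unstranded, had been sequenced; replicates are separate cell cultures. The methods describe alignment to GRCm39 with STAR, counting with HTSeq 0.13.5 and DESeq2 1.34.0, and the submitters' processing notes also name Salmon 1.5.2 and Trim Galore 0.6.7. The authors deposited Salmon-format files that give an estimated count per transcript (140789 in all), with no scaling between libraries. The authors' TPM values stand beside them and correct for length and depth. The transcript index was not given in the sources used here. The authors' deposited effective lengths, in bases, served only as an offset in an alternative.

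Transcripts were assigned to genes with GENCODE vM39 (139544, or 99.12%, were named, 36233 of them by an identifier of another version). Counts were summed per gene and rounded. Summed depth ran from 18830503 to 26203339 counts. edgeR estimated a coefficient of biological variation of 32.3% (19% once the block was included). 0 columns lacked a sample. A single edgeR 4.0.16 quasi-likelihood model of 6 groups (TMM, filterByExpr, 10 residual degrees of freedom) gave all comparisons, with Benjamini-Hochberg adjustment over all 14838 tested genes; interactions were called on the adjusted p alone. DESeq2 1.42.0, RLE factors, no filter, the compared groups alone, a length offset, protein_coding transcripts, no fold threshold and leaving out each library were alternatives. Log2 CPM used a prior count of 2. The model was tested on simulated data.

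Libraries of the same replicate number deviated together from their group means (the lowest correlation over genes was 0.19 in KO vs WT, 0.31 in KO+P vs KO, 0.41 in KO+R vs KO, 0.49 in WT+P vs WT and 0.60 in WT+R vs WT). Over all 36 pairs of libraries with the same number it ran from 0.03 to 0.69 (median 0.52). Over 70 pairs with different numbers it ran from −0.69 to 0.4 (median −0.23). Deviations from a group mean cancel out within the group, so these negative values are not separate evidence of pairing. The numbers were taken to pair the libraries because of the positive values for the same number. This pairing comes from the values; the labels do not state it. A model with the number as a block was fitted beside the main one.

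The 10 genes and all lists were chosen with earlier results of these data known. Besides the 10 genes, *Pdcd10* and *Fkbp1b*, each list gave up to 4 called genes or, with none called, the gene with the smallest p; each marker list also gave its most abundant gene, and the endothelial list *Pecam1* and *Cdh5*; *Ddit4*, *Eif4ebp1* and *Fkbp1a* gave the 3 genes most like them; other names are marked as chosen later. Some genes that the rule would name are not reported here; they remain in the counts and medians of their lists. Motifs and sequences come from the GRCm39 genome.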

Additional observations from a re-analysis of the deposited data

Results flagged for a closer look

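The estimated differences of *Mtor* with propranolol had opposite signs in KO and WT cells. In KO cells *Mtor* was lower with propranolol in 3 of 3 replicate numbers, by −0.12, −0.08 and −0.04 on the log2 scale (46.75 to 48.22 CPM against 49.61 to 50.98 CPM). In WT cells it was higher in 2 of 2, by 0.10 (against WT replicate 1) and 0.26. The difference between these effects was −0.21 (95% interval −0.54 to 0.13, adjusted p from edgeR 1), so it did not pass, and each effect was smaller than 1.5-fold. It ranged from −0.25 without WT replicate 3 to −0.13 without WT replicate 2, and was −0.22 without WT replicate 1.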

How the results depend on the processing

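For the 10 genes the RLE factors, the length offset, protein_coding transcripts and the adjusted p alone left the number of calls as reported in every comparison, and no called value changed sign. In KO+R the number of calls was 2 (*Rictor* and *Ddit4*) instead of 1 with DESeq2, with only the compared groups, with the replicate block, with DESeq2 and the block, and with 2 settings chosen after seeing the data, the block with adjusted p alone and the block without WT replicate 1. In WT+R it was 2 with no filter, DESeq2, the block, DESeq2 with the block and both added settings, but 0 with only the compared groups. In KO+P it was 1 (*Eif4ebp1*) with DESeq2 and with DESeq2 and the block. Leaving out a library gave 0 to 1 in KO+R, 0 to 1 in WT+R and 0 to 1 in KO+P, where the 1 came without KO+P replicate 3. *Ddit4* was the 1 call in WT+R without WT replicate 2. The replicate block changed no other call of the 10 genes.

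Counts over all genes moved more. They were 1, 1, 224, 1 and 207 for KO vs WT, KO+P, KO+R, WT+P and WT+R; with the block 27, 21, 739, 12 and 677; with DESeq2 64, 164, 473, 119 and 542; with DESeq2 and the block 396, 933, 1123, 157 and 978; with no filter 5, 52, 239, 36 and 263; and with the compared groups alone 0, 0, 277, 0 and 8. Leaving out KO+P replicate 3 gave 332 calls in KO+P, leaving out WT+P replicate 2 gave 546 in WT+P, and other omissions gave 51 to 87 in KO+R and 25 to 140 in WT+R. The gene with the lowest level, *Tsc1*, had 383 to 714 counts per library, and WT+P and WT+R had 2 libraries each.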
